A study of Mus musculus with 11 samples.

Results

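The 8 genes of histone modification described here were taken by gene symbol from an expression table of libraries labelled as cardiac fibroblasts, Pw1 CKO or control. They are Nsd2, Psip1, Phrf1, Bap1, Kdm3a, Hat1, Jmjd6 and Epop, and all 8 were found among the 1293 complete genes used here. The genes were grouped by what they do. RNA came from cardiac fibroblasts of the injured left ventricle of mice, 3 days after myocardial infarction, and was enriched for polyadenylated transcripts before sequencing. The 5 Pw1 CKO libraries carry floxed Pw1 alleles and a Cre driven by Pdgfra, worded Pdgfra-Cre;Pw1fl/fl for CKO 1 to 3 and PDGFRa Cre+;Pw1 fl/fl for the others. The 6 control libraries are of mixed genotype in the first wording (wild type, Pw1fl/+ or Pw1fl/fl, control 1 to 3) and Pw1 fl/fl in the second (control 4 to 6). These wordings split the libraries into set 1 and set 2. The column names of the other 2 CKO libraries match the group but no single sample. Since CKO 1 to 3 were matched, the pair was placed in set 2 by elimination, and its members carry the letters CKO a and CKO b. The comparisons of sets below rest on this placement. Pdgfra is active in several mesenchymal cell types, so this Cre is not limited to fibroblasts of the heart. The age of the mice, and whether each library is a separate mouse, are not given in the sources used here. The p-values therefore measure the spread between these libraries.

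Histones are modified by enzymes that add or remove methyl, acetyl and ubiquitin groups, and other proteins read these marks and bring further enzymes to chromatin. Pw1, whose gene symbol is Peg3, is an imprinted zinc-finger protein of mesenchymal progenitor cells. After infarction, cardiac fibroblasts divide, are activated and lay down scar matrix, a change of state in which such enzymes take part.

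Nsd2 (gene ID 107823, GRCm38.p6 chromosome 5, 33820676 to 33897966) is a methyltransferase that marks a lysine of histone H3 in gene bodies. Kdm3a (104263, chromosome 6, 71588970 to 71632990) is a demethylase of the Jumonji family that removes a repressive methyl mark from histone H3 and is known as a target of the hypoxia response. Hat1 (107435, chromosome 2, 71389260 to 71441622) acetylates newly made histone H4 before it reaches chromatin. Bap1 (104416, chromosome 14, 31251352 to 31259930) removes ubiquitin from histone H2A and so acts against Polycomb repressive complex 1. Jmjd6 (107817, chromosome 11, 116837432 to 116843767) is a Jumonji oxygenase that hydroxylates lysines of splicing factors and was also reported as an arginine demethylase. Psip1 (101739, chromosome 4, 83455680 to 83486463), also called LEDGF, reads methylated histone H3 in gene bodies. Phrf1 (101471, chromosome 7, 141228477 to 141262751) holds a PHD finger and a RING finger, which mark histone readers and ubiquitin ligases. Epop (103551, chromosome 11, 97627387 to 97629716) joins Polycomb repressive complex 2 and ties it to elongin. In the annotation, Nsd2 overlaps Nelfa and Gm52782, Jmjd6 overlaps Mettl23, Psip1 overlaps Snapc3, Phrf1 overlaps Gm51460 and Hat1 overlaps the pseudogene Gm13642. The sources used here do not say whether counting used strand, so reads from the shared bases cannot be told apart.

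The start regions of 3 genes are shown: Bap1, which fell, Jmjd6, which rose, and Kdm3a, whose assigned transcript length changed. The promoter table of RefSeq (build GRCm38.p6, 250 bases before to 50 after a start) matched 5 of the 8 genes with 7 start regions. Sequences are 5′ to 3′ on the gene's strand, and capitals mark each CG dinucleotide, the site of DNA methylation. Bap1 is on the plus strand (chr14:31251239-31251538), and Jmjd6 (chr11:116843400-116843699) and Kdm3a are on the minus strand. Kdm3a is shown at its upstream start (chr6:71632868-71633167) and at an internal start (chr6:71609090-71609389).
Bap1: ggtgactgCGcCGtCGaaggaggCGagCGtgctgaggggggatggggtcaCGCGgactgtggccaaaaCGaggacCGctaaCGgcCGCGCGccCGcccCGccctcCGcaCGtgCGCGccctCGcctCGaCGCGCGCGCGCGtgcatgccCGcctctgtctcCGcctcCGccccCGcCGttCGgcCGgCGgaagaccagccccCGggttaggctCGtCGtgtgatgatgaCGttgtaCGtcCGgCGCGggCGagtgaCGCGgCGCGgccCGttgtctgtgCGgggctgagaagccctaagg
Jmjd6: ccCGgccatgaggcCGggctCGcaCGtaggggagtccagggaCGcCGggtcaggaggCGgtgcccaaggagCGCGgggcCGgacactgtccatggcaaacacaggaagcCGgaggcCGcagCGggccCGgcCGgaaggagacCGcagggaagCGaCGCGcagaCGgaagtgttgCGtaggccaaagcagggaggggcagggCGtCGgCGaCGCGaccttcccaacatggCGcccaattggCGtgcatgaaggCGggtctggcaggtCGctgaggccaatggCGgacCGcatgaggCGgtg
Kdm3a upstream: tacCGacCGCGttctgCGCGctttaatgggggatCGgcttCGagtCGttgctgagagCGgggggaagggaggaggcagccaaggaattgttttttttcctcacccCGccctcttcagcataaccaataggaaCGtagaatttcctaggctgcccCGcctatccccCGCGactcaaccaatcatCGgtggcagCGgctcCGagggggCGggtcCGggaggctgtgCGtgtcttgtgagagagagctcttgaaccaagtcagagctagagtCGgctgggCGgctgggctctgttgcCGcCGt
Kdm3a internal: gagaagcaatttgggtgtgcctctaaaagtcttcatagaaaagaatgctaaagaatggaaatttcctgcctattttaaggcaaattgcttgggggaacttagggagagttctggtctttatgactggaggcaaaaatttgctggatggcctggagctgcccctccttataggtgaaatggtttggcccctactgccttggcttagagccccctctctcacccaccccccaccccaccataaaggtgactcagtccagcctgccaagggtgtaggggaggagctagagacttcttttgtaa
The Bap1 region holds 50 CG dinucleotides in 300 bases, the Jmjd6 region 33 and the upstream Kdm3a region 24. The median over all 32851 regions of that table was 7. The internal Kdm3a region holds 0, as do 5.43% of all regions.

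Relative to the other genes of the table, 5 of the 8 genes fell in Pw1 CKO fibroblasts, 2 rose and 1 was not called. Nsd2, Psip1, Phrf1, Bap1 and Kdm3a fell to between 0.442 and 0.556 of their control level, and Epop and Jmjd6 rose 3.40-fold and 1.89-fold. Hat1 was close to its control level. In the edgeR test (TMM scaling, label set in the model, Benjamini-Hochberg adjusted p under 0.05), 71.3% of the 770 tested genes were called, 33.9% higher and 37.4% lower. A call by itself is therefore common in this comparison, and the size and order of the changes say more than their number. The median change was -0.88 on the log2 scale over the 8 genes, against -0.06 over all tested genes. After a correction for transcript length, described below, these medians were -0.26 and 0.09. The 8 genes were chosen with earlier results of these data known, so their medians are a description and not a test. Levels below are read counts scaled by library size and TMM factor (CPM), with SD over libraries. In bulk RNA, fewer cells that express a gene and less of its RNA per cell cannot be told apart.

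Nsd2, the H3 methyltransferase, had 50.2, 57.7 and 59.6 CPM in CKO 1 to 3 and 41.4 and 44.7 CPM in CKO a and CKO b. The control libraries had 103 to 120 CPM with a median of 113 CPM. Every CKO library lay below every control library, as for 29.2% of tested genes. Nsd2 averaged 50.7 ± 7.94 CPM in CKO (n = 5) and 112 ± 6.0 CPM in control (n = 6), 2.26-fold lower. Its log2 change was -1.18 (SE 0.08; edgeR adjusted p = 6.99e-07), with the smallest standard error of the 8 genes. Psip1, the reader of H3 methylation, had 17.5, 24.3 and 26.2 CPM in CKO 1 to 3 and 11.5 and 12.6 CPM in CKO a and CKO b, against 32.6 to 37.4 CPM (median 35.0) in the control libraries. The groups did not overlap, and CKO a and CKO b were lowest. Its log2 change was -1.0 (SE 0.20; edgeR adjusted p = 0.000803). Phrf1 had 49.3, 65.5 and 63.0 CPM in CKO 1 to 3 and 33.5 and 35.7 CPM in CKO a and CKO b, against 78.9 to 105 CPM (median 97.0) in the control libraries. It changed by -1.0 (SE 0.12; edgeR adjusted p = 2.03e-05), with no overlap between the groups.

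The erasers Bap1 and Kdm3a also fell. Bap1, the H2A deubiquitinase, had 38.2, 50.0 and 48.2 CPM in CKO 1 to 3 and 21.9 and 24.1 CPM in CKO a and CKO b. Its control libraries had 53.6 to 69.4 CPM, with a median of 60.5 CPM. The highest CKO library lay just under the lowest control library. The log2 change of Bap1 was -0.85 (SE 0.13; edgeR adjusted p = 0.000173). Kdm3a, the H3 demethylase, had 28.7, 33.1 and 36.5 CPM in CKO 1 to 3 and 18.3 and 21.7 CPM in CKO a and CKO b, against 47.9 to 56.3 CPM (median 49.3) in the control libraries. It fell by 0.92 on the log2 scale (SE 0.15; edgeR adjusted p = 0.000199), and the groups did not overlap. With the length trend taken out, its call was lost (-0.22; edgeR adjusted p = 0.0582).

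Epop and Jmjd6 went the other way. Epop, the Polycomb partner, had 17.4, 11.8 and 13.7 CPM in CKO 1 to 3 and 21.9 and 21.6 CPM in CKO a and CKO b, against 4.12 to 6.22 CPM (median 4.83) in the control libraries. Every CKO library lay above every control library, as for 27.1% of tested genes. Epop rose by 1.76 on the log2 scale (SE 0.19; edgeR adjusted p = 1.15e-05), the largest change of the 8 genes. Jmjd6, the Jumonji oxygenase, had 70.5, 57.0 and 58.0 CPM in CKO 1 to 3 and 93.3 and 90.9 CPM in CKO a and CKO b, against 37.1 to 41.2 CPM (median 38.9) in the control libraries. The control libraries were close together, and the CKO libraries spread upwards from them. Jmjd6 rose by 0.92 (SE 0.11; edgeR adjusted p = 2.25e-05) relative to TMM, a direction that was not seen with TPM.

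Hat1, the H4 acetyltransferase, had 47.9, 45.6 and 45.5 CPM in CKO 1 to 3 and 40.0 and 39.6 CPM in CKO a and CKO b, against 36.4 to 43.9 CPM (median 37.6) in the control libraries. The groups overlapped, because CKO a and CKO b lay within the range of the control libraries. Its log2 change was 0.16 (95% interval -0.03 to 0.35; edgeR adjusted p = 0.120), and its call was gained without CKO a, at 0.23 (edgeR adjusted p = 0.0443).

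**Figure D1:**
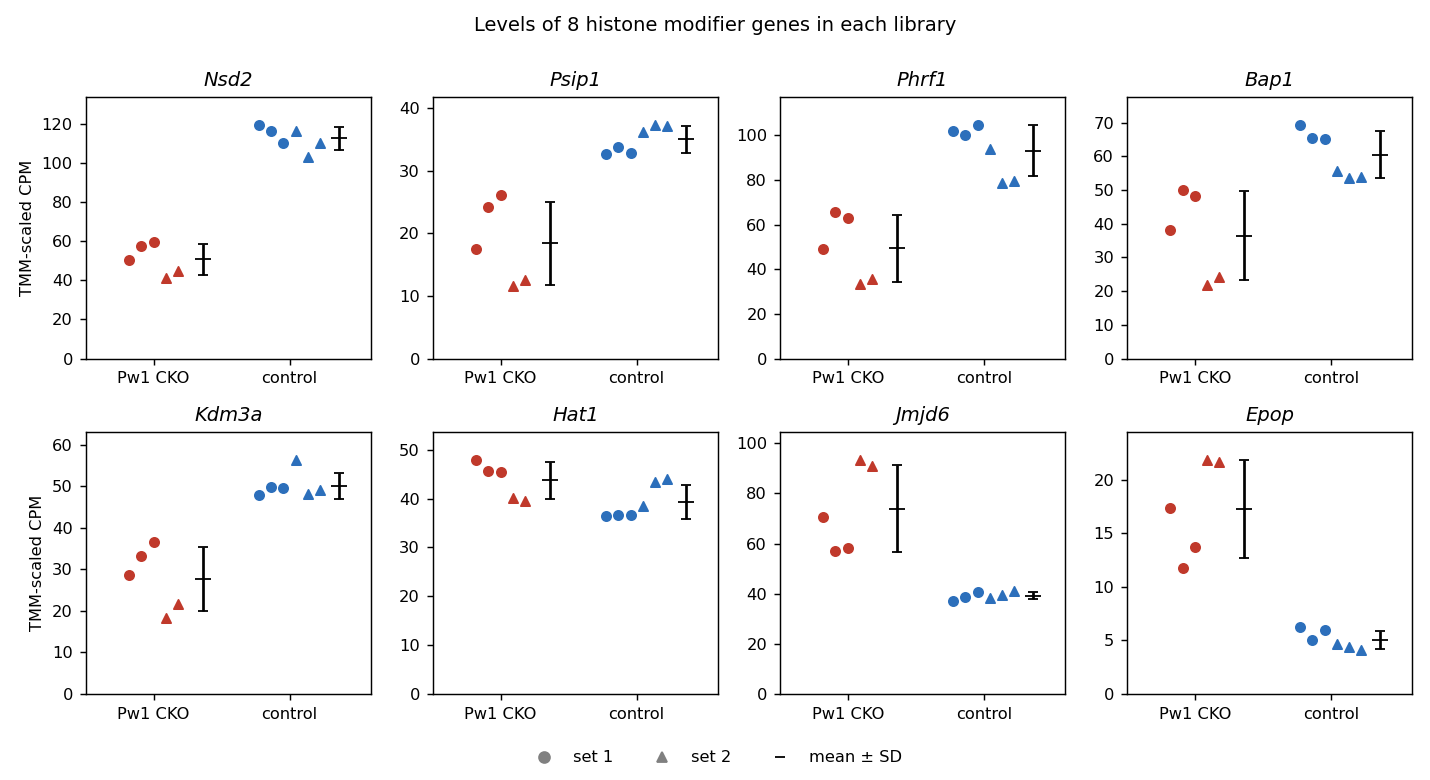
TMM-scaled CPM (vertical axes, each from 0) of the 8 genes in 5 Pw1 CKO and 6 control libraries. Points are libraries, circles for set 1 and triangles for set 2, and bars are the mean and SD. The CKO libraries lie below all control libraries for Nsd2, Psip1, Phrf1, Bap1 and Kdm3a and above them for Jmjd6 and Epop, and the CKO triangles lie farthest from control in these genes.

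Set 2 showed larger changes than set 1 for most of the 8 genes. In a model with its own CKO effect for either set, the log2 change of Psip1 was -1.61 in set 2 against -0.55 in set 1, and that of Kdm3a -1.35 against -0.58. Bap1 had -1.24 in set 2 against -0.55 in set 1, Phrf1 -1.28 against -0.79, and Nsd2 -1.35 against -1.04. Epop had 2.30 in set 2 against 1.32 in set 1, and Jmjd6 1.21 against 0.67. These genes were called in each set by edgeR, as were 74.2% of tested genes in set 2 and 65.8% in set 1. Hat1 was called higher in set 1, at 0.34 (edgeR adjusted p = 0.000965), and was not called in set 2, at -0.08 (edgeR adjusted p = 0.395). The test of the difference itself called all of the 8 genes but Nsd2 (-0.30; edgeR adjusted p = 0.0597), and it called 41.9% of all tested genes. For Phrf1 the call of a set difference (-0.49; edgeR adjusted p = 0.0316) was lost when CKO 2, CKO 3, CKO a or control 1, 2, 3 or 4 was left out, with adjusted p up to 0.120. For Nsd2 it was gained without CKO 1, at -0.38, and without control 5, at -0.35. The wording of the genotype, the genotypes of the controls and the way columns were tied to samples differ between the sets, and their parts cannot be told apart. The CKO libraries of the sets also differed in genes of other cell types. The monocyte gene Ly6c2 had 220.3 and 206.6 CPM in CKO a and CKO b and 77.0 to 108 CPM in CKO 1 to 3, and the red cell gene Hbb-bs had 27.0 and 29.6 CPM and 8.91 to 11.9 CPM. Their part in the set differences was not tested. Among the control libraries, edgeR called 0 of the 8 genes between set 2 and set 1 (9.22% of all tested genes). The largest of these differences (set 2 minus set 1) were in Epop (-0.38), Bap1 (-0.29), Phrf1 (-0.29) and Hat1 (0.20). Their edgeR adjusted p lay between 0.0749 and 0.142. This comparison of control libraries was added after the values were seen.

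The changes in CKO varied with transcript length. The mean transcript length of a library was 1540 to 1675 nt in CKO 1 to 3 and 2167 to 2294 nt in the control libraries, and over all genes long transcripts fell more than short ones. Of the tested genes with effective lengths over 4000 nt, 146 of 198 fell (median change -0.74), and of those from 1000 to 2000 nt 110 of 194 rose (median 0.56). The effective length is the transcript length open to fragments, computed from counts and FPKM. Nsd2 (6815 nt), Phrf1 (5338 nt) and Kdm3a (4203 nt) are in the longest class. Bap1 (3358 nt), Psip1 (2661 nt) and Epop (2282 nt) are between 2000 and 4000 nt, and Jmjd6 (1670 nt) and Hat1 (1527 nt) between 1000 and 2000 nt. The part of the library differences in each result was not tested beyond the fits below.

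After a fit of each library's trend with length was taken out, the test called 70.9% of 738 genes (303 higher, 220 lower), with a median of 0.09 over all of them. Epop stayed higher by 1.75 and Psip1 lower by 0.96, values close to those before. Jmjd6 stayed higher, at 0.55, and Bap1 lower, at -0.52. The long genes Nsd2 and Phrf1 kept their calls at smaller values, -0.30 and -0.19. Kdm3a was no longer called, and Hat1 was called lower (-0.32; edgeR adjusted p = 0.0250). Nsd2, at the head of the falls before, came after Psip1, Bap1 and Hat1 with the correction.

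**Figure D2:**
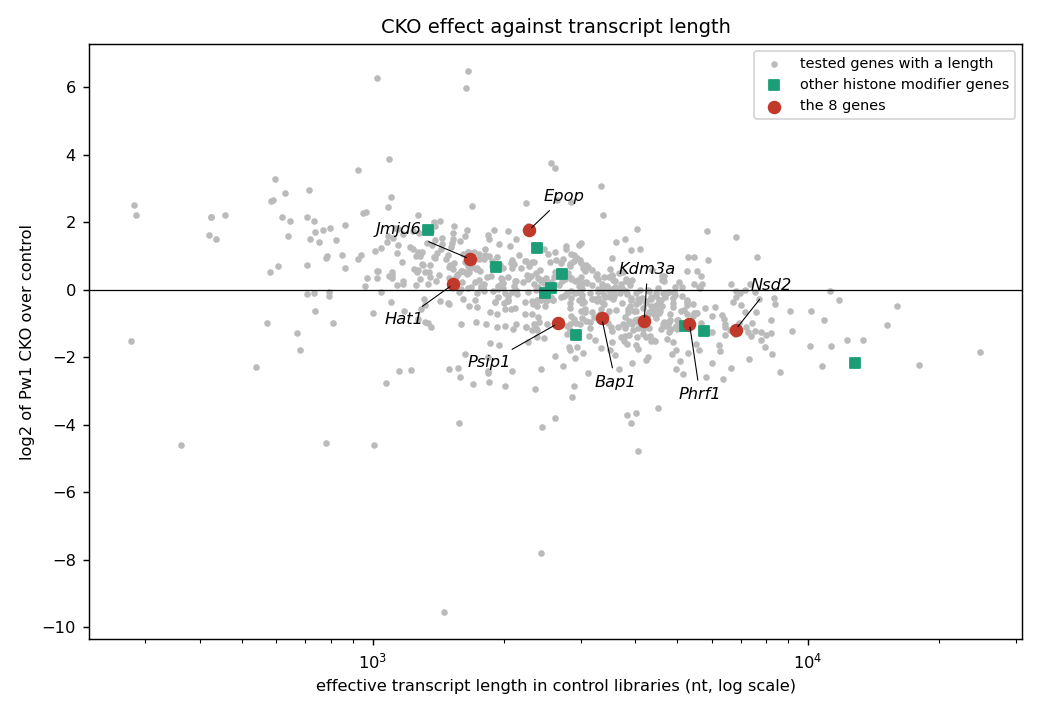
Log2 of Pw1 CKO over control (vertical axis, TMM scaling) against effective transcript length in control libraries (horizontal axis, log scale) for tested genes with a length, with the 8 genes in red and other histone modifier genes as green squares. Epop lies above most genes of its length and Psip1 below the horizontal line at a length between 2000 and 4000 nt, while Nsd2, Phrf1 and Kdm3a lie within the band of long genes.

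The scaling also sets some directions. Over the 9 libraries matched to a sample, the recovered library totals alone gave a median change of -0.32 over all genes, and log2(TPM + 1) gave -0.60, against 0.01 with TMM, where 66.1% of genes were called. On the first scale 66.8% of 802 genes were called, and on the second 79% of 699. Nsd2 fell by 1.32 with recovered totals and by 1.81 with TPM, Phrf1 by 1.06 and 1.47, and Bap1 by 0.82 and 1.26. Psip1 fell by 0.82 with recovered totals and by 1.24 with TPM, and Kdm3a by 0.86 and 1.0. TMM over the same 9 libraries gave -0.99 for Nsd2, -0.73 for Phrf1, -0.50 for Bap1, -0.49 for Psip1 and -0.53 for Kdm3a. These 5 genes fell with TMM, recovered totals and TPM. Relative to the median of all genes, their TPM changes lay between -0.40 and -1.21. The -0.40 was that of Kdm3a. Its effective length, to which TPM is scaled, was shorter in CKO 1 to 3, as given below. The part of that length in the value was not tested. Epop rose on these scales too, by 1.04 with recovered totals and by 0.51 with TPM, against 1.38 with TMM over the same libraries. Jmjd6 rose by 0.73 with TMM over the same libraries and by 0.39 with recovered totals. With TPM it was not called (-0.09, limma adjusted p = 0.214), which is 0.51 above the median of all genes. Hat1 was called lower with TPM (-0.39; limma adjusted p = 0.000298), which is 0.21 above that median, and was not called with recovered totals (0.06). Its direction therefore depends on the scale.

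**Figure D3:**
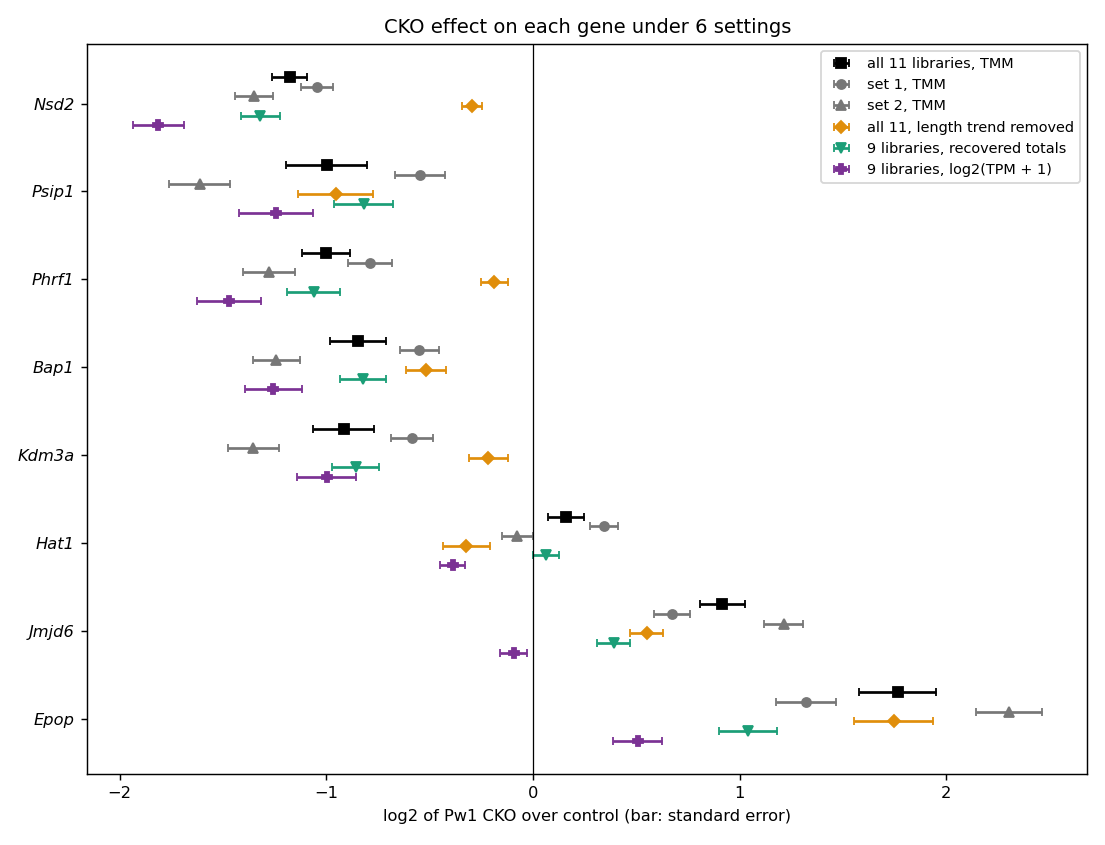
Log2 of Pw1 CKO over control (horizontal axis) for the 8 genes (vertical axis) under 6 settings, each with its standard error. The settings with 9 libraries leave out CKO a and CKO b. The 5 genes that fell stay left of 0 and Epop right of 0 under each setting, while Hat1 and, with TPM, Jmjd6 cross it.

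TPM, which is scaled to transcript length, allows the genes to be ranked against each other. In CKO 1 to 3, Jmjd6 was highest at 54.2 ± 1.87 TPM (52.6 to 56.2) and Hat1 next at 45.6 ± 2.37 TPM (42.9 to 47.3), with no overlap. In the 6 control libraries, Hat1 was at 64.1 ± 4.65 TPM (59.9 to 69.4) and Jmjd6 at 58.6 ± 2.32 TPM (54.8 to 60.9), and their ranges overlapped. Bap1 averaged 20.5 ± 4.32 TPM in CKO and 45.1 ± 5.54 TPM in control, Phrf1 17.0 ± 3.66 and 43.7 ± 6.0 TPM, and Nsd2 12.1 ± 1.98 and 41.9 ± 4.42 TPM. Psip1 averaged 12.8 ± 3.8 TPM in CKO and 33.1 ± 2.72 TPM in control, and Kdm3a 14.2 ± 2.89 and 29.8 ± 2.72 TPM. With the genes ordered by their mean in CKO, the range of every gene from Bap1 down to Nsd2 overlapped that of the next. In control, the range of every gene from Bap1 down to Psip1 overlapped that of the next. Kdm3a (28.0 to 35.3 TPM) and Epop (4.36 to 6.83 TPM), the last in that order, did not overlap in control. Epop was lowest in both, with 9.35 ± 1.18 TPM in CKO and 5.54 ± 0.969 TPM in control, but its range of 8.09 to 10.4 TPM in CKO reached that of Psip1 (8.52 to 15.7 TPM) and of Nsd2 (9.84 to 13.5 TPM). All SDs of TPM are over 3 CKO and 6 control libraries.

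Kdm3a also differed in which lengths of transcript its reads were assigned to. Its effective length was 3540, 3528 and 3458 nt in CKO 1 to 3, against 4138 to 4341 nt in the 6 control libraries. All CKO libraries were shorter than all control libraries. The mean was 3508 ± 44.5 nt in CKO (SD, n = 3) and 4214 ± 68.1 nt in control (SD, n = 6), a change of -16.7% (2-sided exact permutation p = 0.0238, as low as 84 splits can give; 0.0349 adjusted over 418 genes). Such a separation without regard to size was found for 34.9% of 418 genes, so its size matters more than its p. A mean over 10% shorter in CKO was found for 10.5% of these genes, and the median change was -0.05%. Within set 1 the change was -17.5% (exact permutation p = 0.1, the smallest possible). The 3 RefSeq-linked transcripts of Kdm3a in GENCODE M21 are 4753 to 4853 nt long and start between 71632686 and 71632990, in or just downstream of the upstream region shown above. The annotation also holds shorter transcripts, among them a protein-coding one of 2723 nt that starts at 71632686, a retained intron of 3137 nt, and a processed transcript of 1718 nt that starts at 71609139, the internal start shown. The start at 71632686 has a region of its own in the promoter table, with 40 CG dinucleotides. The shorter transcripts named here have no RefSeq link in GENCODE M21. The sources used here do not name the transcript set that reads were assigned to, so it may not hold them. Which transcript gave the change was not tested.

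Other members varied less in effective length. Jmjd6 was at 1710 ± 8.77 nt in CKO and 1673 ± 14.3 nt in control (2.20%; CKO libraries all longer, as for 33.3% of 418 genes), and Psip1 at 2705 ± 93.3 nt and 2645 ± 63.0 nt with overlapping groups. Hat1, Bap1, Epop and Phrf1 changed by -0.47% to 0.13%. Nsd2 was at 6990 to 7001 nt in CKO 1 to 3 and at 6983 to 7015 nt in the set 2 controls, but at 6387, 6359 and 6646 nt in the set 1 controls. The set 1 controls, of mixed genotype by their label, therefore stood apart from the other libraries for Nsd2. Over all control libraries the Nsd2 mean differed from CKO by 3.92% with overlapping groups (exact permutation p = 0.357). Within set 1 its CKO mean was 8.25% longer without overlap (exact permutation p = 0.1, the smallest possible).

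**Figure D4:**
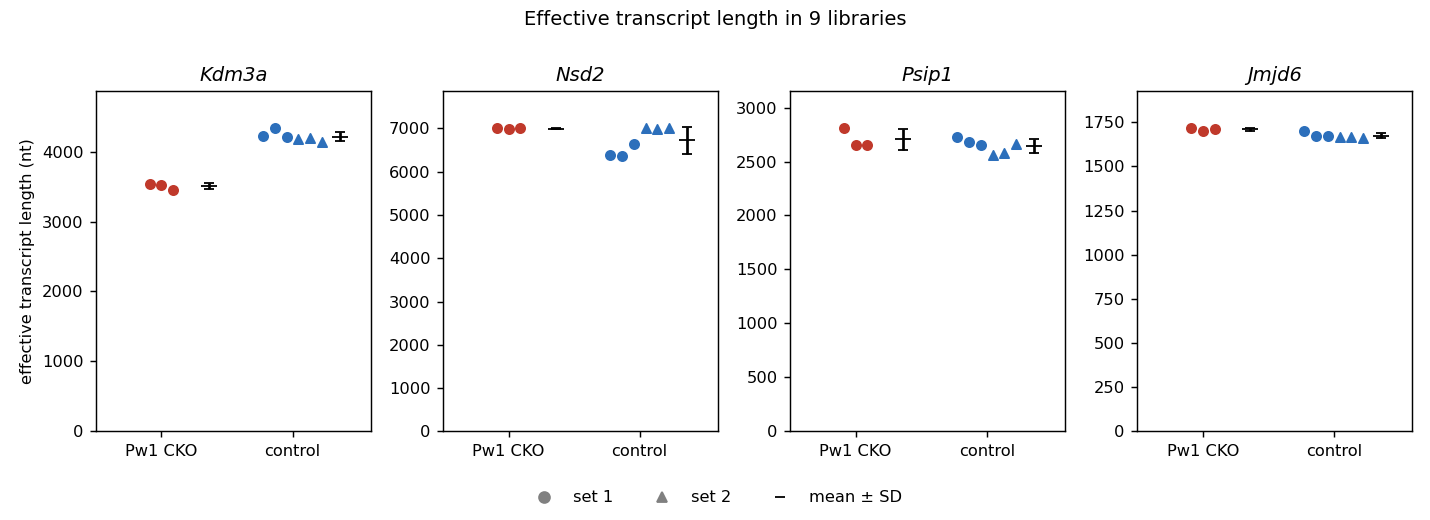
Effective transcript length in nt (vertical axes, each from 0) of 4 genes in CKO 1 to 3 and the 6 control libraries, with circles for set 1, triangles for set 2, and bars for mean and SD. Kdm3a is shorter in the 3 CKO libraries (3458 to 3540 nt) than in all control libraries, and Nsd2 is shorter in the set 1 controls than elsewhere.

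Other genes of histone modification were listed by function, 316 symbols in all, of which 10 were among the 1293 genes used here, and all 10 were tested. The other symbols were not analysed here. Of these, 4 rose, 4 fell and 2 were not called, with a median change of -0.02. The 8 calls of 10 compare with the 71.3% of all tested genes. Among the histone acetyltransferase genes, Trrap, the large scaffold of such complexes, fell by 2.18 (SE 0.22; edgeR adjusted p = 7.62e-06), to 24.4 ± 13.0 CPM in CKO against 94.8 ± 15.4 CPM in control. Taf5l, a subunit of SAGA, which is one of those complexes, fell by 1.35 (SE 0.30; edgeR adjusted p = 0.00191), and Tada3, another subunit, rose by 0.68 (SE 0.11; edgeR adjusted p = 0.000228). With TPM, Tada3 was called lower (-0.24, limma adjusted p = 0.0184), as were Trrap (-2.19) and Taf5l (-1.34), so the direction of Tada3 depends on the scaling. Relative to the median of all genes with TPM, Tada3 was at 0.36, Trrap at -1.59 and Taf5l at -0.73. Trrap has an effective length of 12844 nt, Taf5l 2929 nt and Tada3 1923 nt. After the length trend was removed, Trrap was at -0.90, Taf5l at -1.24 and Tada3 at 0.52.

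Ogt, the sugar transferase that binds the Bap1 complex, fell by 1.08 (SE 0.11; edgeR adjusted p = 9.74e-06) and by 0.27 with the length trend removed. Bap1 itself was at -0.85 and -0.52 in the same fits. Cabin1, a partner of the histone chaperone HIRA, fell by 1.22 (SE 0.15; edgeR adjusted p = 2.51e-05) and by 0.39 with the length trend removed. Brms1, a subunit of a histone deacetylase complex, rose by 1.76 (SE 0.23; edgeR adjusted p = 5.14e-05), to 117 ± 52.7 CPM in CKO against 33.4 ± 3.64 CPM in control, and was at 1.08 with the length trend removed. Pwwp2b, which holds a PWWP domain like that of Psip1, rose by 1.24 (SE 0.15; edgeR adjusted p = 2.27e-05), and Prmt9, an arginine methyltransferase, by 0.46 (SE 0.07; edgeR adjusted p = 0.000146). Rcor2, a corepressor, changed by 0.04 (SE 0.13), and Brd9, a bromodomain protein, by -0.09 (SE 0.06), and neither was called. With TPM, 1 of the 10 genes, Brms1, was called higher and 8 were called lower, against 91 higher and 461 lower of all 699 genes on that scale. Prmt9 (-0.22) and Tada3 (-0.24) were among the 8 and Pwwp2b was not called, so the rises of these 3 genes depend on the scaling. Relative to the median of all genes with TPM, Prmt9 was at 0.39, Tada3 at 0.36 and Pwwp2b at 0.74.

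**Figure D5:**
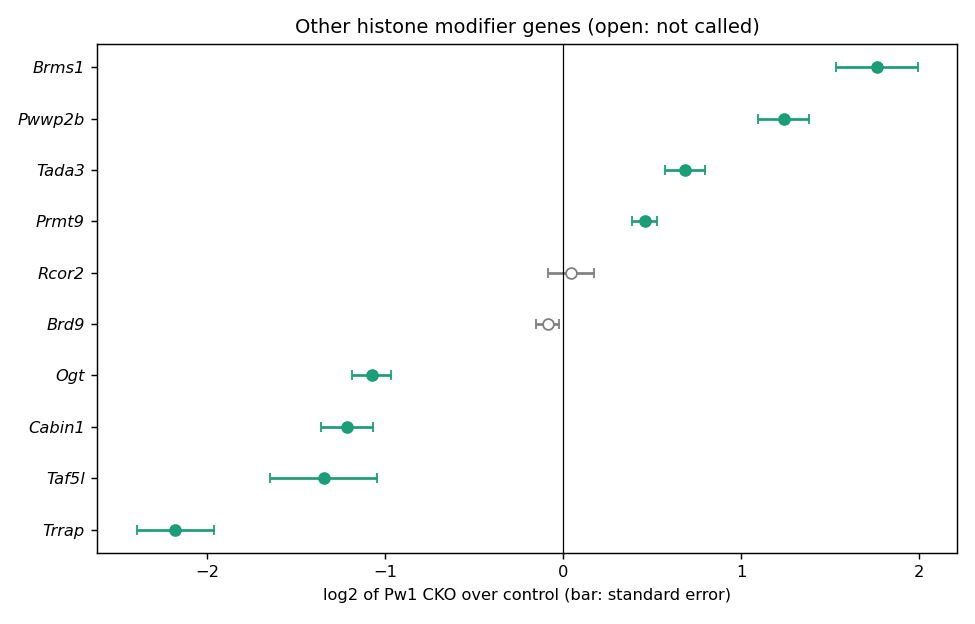
Log2 of Pw1 CKO over control (horizontal axis, TMM scaling, bars are standard errors) for the 10 other histone modifier genes tested (vertical axis), filled where called. Brms1, Pwwp2b, Tada3 and Prmt9 lie right of 0 and Ogt, Cabin1, Taf5l and Trrap left of it.

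The genes most like each member in log2 CPM over the 11 libraries were taken from 499 tested genes with names and an average log2 CPM of at least 1. Nsd2 was most like the collagen gene Col16a1 (Pearson r = 0.996) and Pip4k2b (0.992), and Psip1 most like Ccp110 (0.993) and Slf1 (0.992). Phrf1 was most like Pom121 (0.990) and Cabin1 (0.989), and Bap1 most like the same pair, Cabin1 (0.987) and Pom121 (0.985). Kdm3a was most like the tRNA synthetase gene Iars (0.993) and Tdrd7 (0.991), Jmjd6 most like Spon2 (0.997) and Sharpin (0.996), and Epop most like Slc6a8 (0.996) and Fam50a (0.993). Hat1 had no close match, with Fancf at 0.827 and Slc44a1 at 0.806. These values are descriptions: the 11 points fall into a CKO and a control group, share the spread with transcript length, and most genes separate the groups.

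Recovered totals were 20618281 to 20872140 reads in CKO 1 to 3 and 20633010 to 20923801 in the control libraries, of which the genes held took 2.85% to 2.88% and 2.94% to 3.04%. The same genes held 535022 reads in CKO a and 542809 in CKO b. Principal component analysis put 73.2% of the log2 CPM variance on its first axis, along which CKO and control libraries lay apart. On this axis CKO a and CKO b lay at -29.3 and -26.8 and CKO 1 to 3 at -19.1, -12.5 and -11.7. The control libraries lay at 14.4 to 18.2. Of 38 marker symbols of fibroblasts and other cells, 3 were among the genes used here: the monocyte gene Ly6c2 (77.0 to 220.3 CPM in CKO, 56.6 to 76.2 in control) and the red cell genes Hbb-bs (8.91 to 29.6 and 1.46 to 3.25 CPM) and Hbb-bt (0.560 to 1.80 and 0 to 0.522 CPM). All 3 were higher in every CKO library than in any control library, as for 27.1% of tested genes. Ly6c2 and Hbb-bs were highest in CKO a and CKO b. The log2 changes of Ly6c2, Hbb-bs and Hbb-bt were 1.01, 2.67 and 2.64. All 3 are short (583 to 784 nt), and of tested genes under 1000 nt 35 of 52 rose (median change 1.44). The part of these 3 genes in the results above was not tested. The labelled cell type could not be checked, since no fibroblast marker of the list was among these 3, and Peg3 was not analysed here.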

How the data were processed

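Poly(A) RNA-seq of 11 libraries was deposited as a table of estimated counts per gene with FPKM and TPM beside them, per the file headers. The submitters' processing notes name Bowtie2, RSEM, DESeq2 and GRCm38, without versions or roles. The deposited FPKM and TPM values are scaled to transcript length and library by the authors, per the file headers. Part of the table was used here, with 1293 complete genes, and 4 of 33 columns of per-sample values were not used. For CKO a and CKO b only the counts were used.

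Estimated counts were rounded to whole numbers and tested in R 4.3.3 with edgeR 4.0.16 (quasi-likelihood, TMM, low-count filter, label set in the model), and p-values were adjusted over all tested genes. limma 3.58.1 was used on log2(TPM + 1) and DESeq2 1.42.0 as an alternative. Effective length and library totals were computed from counts and FPKM over the 9 matched libraries, and the mean transcript length of a library from TPM and FPKM. The absolute scale came from GENCODE M21 transcript lengths of genes with a single RefSeq transcript. The total of the first control, 20764107 reads, has a 95% interval of 20531017 to 20962186 from 75 genes, and totals of CKO a and CKO b were estimated from the share held in CKO 1 to 3. The length trend was a loess fit per library (span 0.5, symmetric family). The fits were tested on simulated data.

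All 8 members are named, with every tested gene of the other histone list and of the marker list, and the 2 genes most like each member. The members and lists were chosen with earlier results of these data known. Same-numbered libraries of set 1 had correlations of deviations of 0.10, 0.06 and 0.23, so the numbers were not taken as pairs. Alternatives covered tool, filter, set term, single sets, length, scaling, pseudocount and each library left out.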

Additional observations from a re-analysis of the deposited data

Results flagged for a closer look

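In control libraries, Kdm3a stood at 56.3 CPM in control 4 against 47.9 to 49.9 CPM in the others, and the gap took 0.759 of the range of the group. Chance alone marks about 1 in 20 of such groups, and 36 were looked at.

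The CKO effect differed between set 2 and set 1 in the edgeR test of the difference (set 2 minus set 1, log2 scale) for 7 of the 8 genes: Psip1 (-1.07), Phrf1 (-0.49), Bap1 (-0.69), Kdm3a (-0.77), Hat1 (-0.42), Jmjd6 (0.54) and Epop (0.98). The same was found for Trrap (-1.15), Tada3 (0.56), Taf5l (-1.75), Brms1 (1.35), Ogt (-0.54), Pwwp2b (0.80) and Cabin1 (-0.80). This test called 41.9% of all tested genes.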

How the results depend on the processing

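The calls of Nsd2, Psip1, Phrf1, Bap1 and Epop kept direction and side of the threshold under each alternative run. Kdm3a lost its call with the length trend removed (-0.22). Jmjd6 turned to -0.092 with log2(TPM + 1) and to -0.094 with log2(TPM + 0.1), without a call. Hat1 was called higher with DESeq2 (0.19), in set 1 alone (0.33) and with TMM over the 9 matched libraries (0.40, a setting chosen after seeing the data). It turned to -0.066 in set 2 alone, -0.32 with the length trend removed, -0.39 with log2(TPM + 1) and -0.40 with log2(TPM + 0.1). The causes were not tested. With single libraries left out, Hat1 ranged from 0.14 to 0.23, the set difference of Nsd2 from -0.39 to -0.25 and that of Phrf1 from -0.62 to -0.41. The number of called genes ranged from 480 to 587, and the called genes of the other histone list from 8 to 9. Over all 11 libraries, higher and lower calls split 261 to 288 with TMM and 303 to 220 with the length trend removed. Over the 9 matched libraries, they split 270 to 260 with TMM, 176 to 360 with recovered totals and 91 to 461 with TPM.

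With the replicate block in set 1, 480 genes were called, against 501 without it, and Hat1 was at 0.33 (edgeR adjusted p = 0.0251). Hat1 was called in set 1 without the block too, and the block changed the call of none of the 8 genes.

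The genes used here took 2.85% to 3.04% of the reads of a library, so scaling rests on few genes. Peg3 and fibroblast markers were not analysed here.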
